A study of Gadus morhua with 47 samples.

Results

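The transcripts whose level was lower with ethynylestradiol in liver slices of Atlantic cod (Gadus morhua) are described here, a list of 40 from the 22100 transcripts in the count tables. They were chosen from the slices themselves. In each fish, the mean log2(CPM + 0.1) of the slices with ethynylestradiol was set against that of the slices without it, where CPM is the mapped segments of a transcript per M (mega) mapped segments. A transcript was kept if its mean was 1 to 500 CPM in the slices without ethynylestradiol and if it was lower with ethynylestradiol in at least 7 of 8 fish. Of the 13846 transcripts in that window, 967 were lower in 7 or more fish and 211 in all 8. The 40 with the most negative mean difference are called members, and member 1 has the most negative. Because this difference chose them, its size is a description and no result of a test.

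Precision-cut liver slices, which are thin tissue sections maintained in culture, came from 8 fish, 5 males and 3 females. Slices received ethynylestradiol (EE2) at 10 nM (7 slices) or 1 µM (6), a mixture of EE2 and benzo[a]pyrene with each at 10 nM (Mix 10 nM, 6) or each at 1 µM (Mix 1 µM, 6), benzo[a]pyrene (BaP) alone at 10 nM (7) or 1 µM (7), or the vehicle dimethyl sulfoxide (DMSO, 8). The labels name no strain, age or genetic change, and no cell type was sorted out of the tissue. The 47 libraries held 36.6 to 67.0 M mapped segments (M, mega), so that 3 counts corresponded to 0.0448 to 0.0820 CPM. In bulk tissue, fewer cells of a type and less RNA per cell cannot be told apart. Since all slices came from these 8 fish, p-values of tests on slices, which held fish as a term, measure the spread among slices within these fish. Only the p-values of tests on counts summed per fish measure the spread between the fish.

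The choice left out 4 slices whose profiles were unlike those of the same liver: the DMSO slice of fish 2, the slice of fish 6 with BaP 10 nM, that of fish 7 with BaP 1 µM and the Mix 1 µM slice of fish 8. The remaining 43 libraries, 24 with EE2 and 19 without, are used unless all 47 are named, and values with all 47 are given for part of the results. The members' levels in the 4 slices close the account.

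EE2 is a synthetic estrogen. In fish liver, estrogens act mainly through nuclear estrogen receptors, which bind DNA and change the transcription of their target genes, and the best known response of hepatocytes is the synthesis of the yolk precursor vitellogenin and of egg envelope proteins, normally in females. BaP is a polycyclic aromatic hydrocarbon that activates the aryl hydrocarbon receptor, whose best known target is the enzyme cytochrome P450 1A. The identifiers of the members could not be paired with gene names, since none of them matched the name table for this species, so roles, pathways, chromosome positions and liver cell markers are not reported. Members are named by rank and coding length, and only the first 2 also by identifier.

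The differences were small for nearly all members. Over the 40 members the mean difference had a median of -0.55 on the log2(CPM + 0.1) scale and ran between -1.31 and -0.47. Only members 1 and 2 were below -1, and 26 members lay between -0.6 and -0.4. Lower levels were seen in 8 of 8 fish for 20 members and in 7 of 8 for the other 20. No member had all its EE2 and Mix slices below all its DMSO and BaP slices over the whole set of libraries. Within fish, every EE2 or Mix slice was below every other slice in at least 4 fish for 20 of 40 members, beside 1.67% of the transcripts of the window. It was so in at least 6 fish for members 4, 5 and 6, which are 7.5% of the members, beside 0.0722% of the window. These counts follow from the choice, and nothing is read from them.

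**Figure D1:**
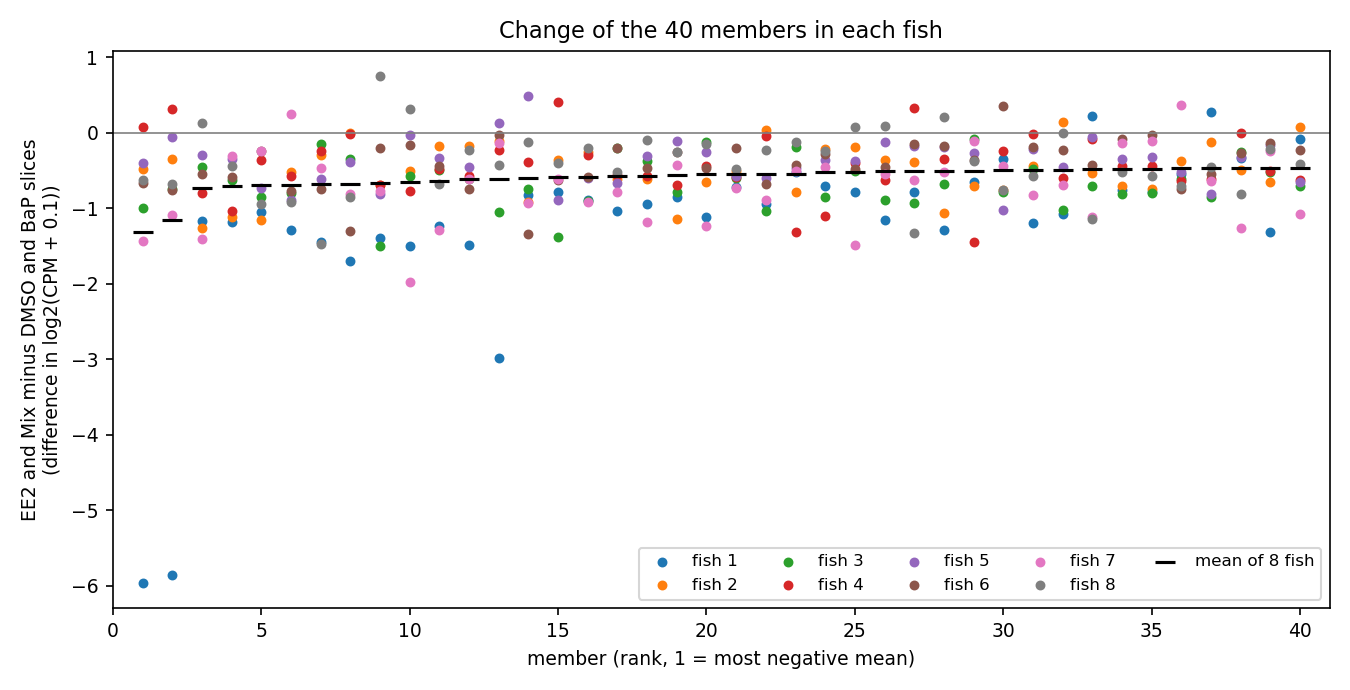
Difference in mean log2(CPM + 0.1) between EE2 and Mix slices and DMSO and BaP slices (y axis) for each of the 40 members by rank (x axis), 1 dot per fish and a bar for the mean of 8 fish. Members 1, 2 and 13 have a dot of fish 1 far below the others, at -5.96, -5.85 and -2.99, while most other dots lie between 0 and -1.5.

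The difference was not of the same size in every fish. Fish 1, a male with 2 EE2 slices and 3 slices without EE2, had a median over members of -1.0, beside a median of 0.20 over all 13846 transcripts of the same window. Fish 3, a female, followed with -0.71, and fish 7, a male with 2 slices with EE2 and only 1 without, had -0.67. The medians of fish 2, 4, 5, 6 and 8 lay between -0.50 and -0.35. Fish 1 gave the lowest value of 13 members and fish 7 of 10. Fish 3 was below 0 for all 40 members, and fish 8 was at or above 0 for 6.

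The pair at the head of the list, ENSGMOT00000010541.1 (member 1, 798 coding bases) and ENSGMOT00000010525.1 (member 2, 804 bases), owed the size of its difference to fish 1. In that fish member 1 had 0.65 CPM with EE2 10 nM and 0.19 CPM with EE2 1 µM, against 114 CPM with BaP 10 nM, 30.8 CPM with BaP 1 µM and 6.73 CPM with DMSO. In the 38 slices of the other fish it did not pass 3.09 CPM on either side. Member 2 had 0.57 and 0.19 CPM in the same EE2 10 nM and EE2 1 µM slices, against 95.4, 27.7 and 6.01 CPM with BaP 10 nM, BaP 1 µM and DMSO. The 3 high slices of fish 1 therefore include the vehicle slice, and the highest is the slice with the low BaP dose. Averaged over 8 fish the difference was -1.31 ± 1.93 for member 1 and -1.15 ± 1.95 for member 2 (SD, n = 8 fish), and without fish 1 it was -0.65 and -0.48. Their means in the slices without EE2, 8.65 and 7.31 CPM, also rested on fish 1. Without that fish both means would be under the 1 CPM limit of the window. Across the 43 libraries, after the means of each fish and side were removed, the levels of both correlated at 0.979, and in some slices, such as Mix 1 µM of fish 3 with 0.467 CPM each, their values were equal. Their sequences were not compared, and how reads that match more than 1 transcript were counted is not stated by the count tables. The pair may therefore carry the same reads and is uncertain as 2 separate members. Member 13 (1632 bases, chosen for mention after its values were seen) had the same outlying fish: 0.36 and 0.52 CPM with EE2 10 nM and EE2 1 µM in fish 1, against 19.3 CPM with BaP 10 nM, 3.32 CPM with BaP 1 µM and 1.03 CPM with DMSO. Without fish 1 its difference was -0.27, against -0.61 ± 1.03 (SD, n = 8) with it. Its mean in the slices without EE2, 1.54 CPM, would also be under 1 CPM without fish 1.

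Members 3 to 10 had mean differences between -0.73 and -0.65, and between -0.64 and -0.46 without the fish with the most negative value. Member 3 (1716 bases) ranged from 0.62 to 6.98 CPM in the 24 EE2 and Mix slices, with a median of 1.39 CPM, against 1.01 to 8.53 CPM and a median of 2.71 CPM in the 19 DMSO and BaP slices. By treatment, its median was 0.96 CPM with EE2 10 nM, 1.70 with EE2 1 µM, 1.46 with Mix 10 nM and 3.41 with Mix 1 µM, against 3.75 with BaP 10 nM, 2.95 with BaP 1 µM and 2.71 with DMSO. The ranges of all 7 treatments overlapped.

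Member 4 (957 bases) shows the same within-fish order on very different levels. In fish 6 its EE2 10 nM, EE2 1 µM, Mix 10 nM and Mix 1 µM slices had 22.3, 15.1, 24.8 and 25.6 CPM, against 34.4 CPM with BaP 1 µM and 30.4 CPM with DMSO. In fish 1 the 2 EE2 slices had 0.34 and 0.54 CPM, against 1.12, 1.14 and 1.03 CPM with BaP 10 nM, BaP 1 µM and DMSO. In fish 7 it was nearly silent: 0.02 CPM with EE2 10 nM and 0 counts with Mix 10 nM, against 0.04 CPM with DMSO, all below the 3-count limit. Every EE2 or Mix slice was below every other slice of its fish in 6 of 8 fish, including fish 7 at levels under that limit. The mean difference was -0.71 ± 0.35 (SD, n = 8).

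Member 5 (1149 bases) was lower in 8 of 8 fish, with a mean difference of -0.70 ± 0.37 and medians of 2.95 CPM in EE2 and Mix slices and 4.92 CPM in DMSO and BaP slices. Its ranges, 1.51 to 13.7 CPM with EE2 and 3.17 to 15 CPM without, overlapped, and fish 6 was the highest on both sides. Member 6 (921 bases) was lower in 7 fish and higher in fish 7, where it had 22.2 CPM with EE2 10 nM and 29 CPM with Mix 10 nM, against 21.3 CPM with DMSO. Its medians were 7.62 CPM with EE2 and 10.1 CPM without, and its mean difference was -0.69 ± 0.45. Member 7 (1329 bases), with medians of 3.96 CPM with EE2 and 6.12 CPM without, was lower in all 8 fish, most in fish 1 (-1.44) and fish 8 (-1.47).

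Members 8, 9 and 10 are examples of low or patchy expression. Member 8 (5808 bases), the longest member, had medians of 0.84 CPM with EE2 and 1.56 CPM without, and its difference in fish 2 (-0.004) and fish 4 (-0.015) was close to 0. Member 9 (1410 bases) had medians of 0.25 CPM with EE2 and 0.71 CPM without; it had a count of 0 in 2 slices on each side, and in fish 8 it was 0.75 higher with EE2 at levels of 0 to 0.09 CPM. Member 10 (744 bases) had medians of 8.60 CPM with EE2 and 8.99 CPM without, and was between 0 and 0.66 CPM in every used slice of fish 7 and 8. Its lowest difference, -1.98, came from fish 7, where 0.27 CPM with EE2 10 nM and 0 counts with Mix 10 nM stood against 0.66 CPM in the only slice without EE2.

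**Figure D2:**
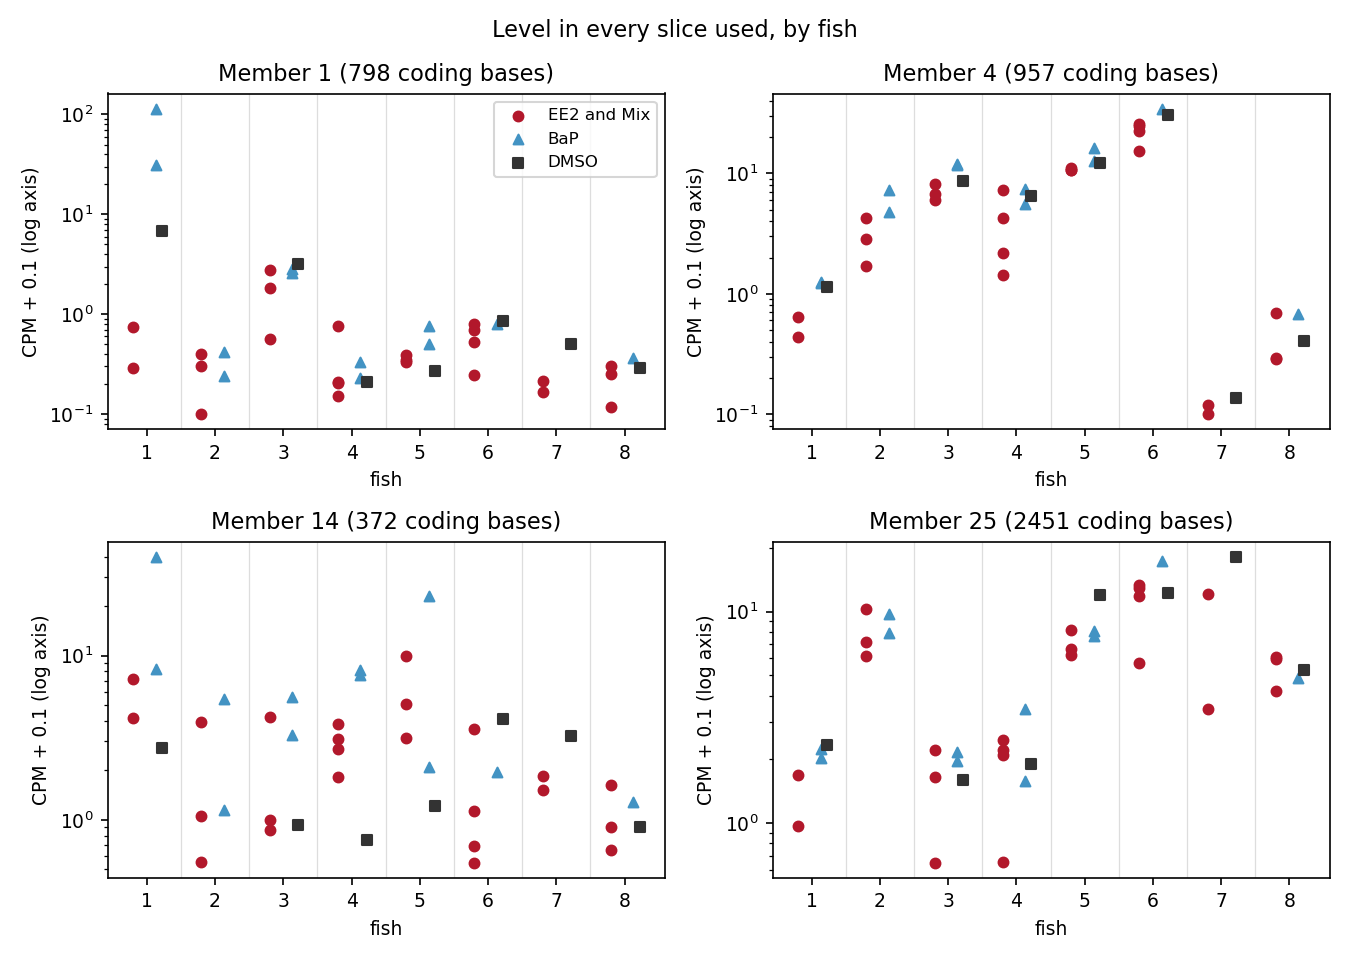
CPM + 0.1 on a log axis for members 1, 4, 14 and 25 in each slice used, by fish (x axis), with EE2 and Mix slices (red circles) left of BaP slices (blue triangles) and DMSO slices (black squares). Member 1 is set apart by 3 slices of fish 1, member 4 runs from under 0.1 CPM in fish 7 to 34.4 CPM in fish 6, member 14 is highest in BaP slices of fish 1 and 5, and member 25 overlaps in most fish.

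The most abundant member, member 20 (3645 bases), had medians of 28.8 CPM in EE2 and Mix slices and 34.8 CPM in DMSO and BaP slices, with ranges of 1.55 to 116 CPM and 5.59 to 148 CPM. It was lower in 8 of 8 fish, with a mean difference of -0.55 ± 0.42. The least abundant, member 36 (1410 bases), had medians of 0.77 CPM with EE2 and 0.98 CPM without, and was higher with EE2 in fish 7 alone. Member 40 (2745 bases), the one with the smallest spread between fish (SD of the fish means 0.56), had 0.19 to 3.26 CPM with EE2 and 0.40 to 3.30 CPM without, so that both sides covered nearly the same range. At the lower end of the list the ranks are nearly tied: members 38 (3492 bases), 39 (366 bases) and 40 each had a mean difference of -0.47, and the next 3 transcripts, which the choice left out, each had -0.46.

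By treatment, the summed level of the 40 members was lowest with EE2 10 nM, with a median of 132 CPM (range 99.5 to 342, 7 slices). It was 209 CPM with EE2 1 µM (103 to 381, 6 slices), 234 CPM with Mix 10 nM (107 to 396, 6 slices) and 314 CPM with Mix 1 µM (170 to 421, 5 slices). Against these stood 361 CPM with BaP 10 nM (135 to 433, 6 slices), 370 CPM with BaP 1 µM (195 to 539, 6 slices) and 257 CPM with DMSO (127 to 464, 7 slices). The ranges of all 7 treatments overlapped, and the fish in each treatment were not the same.

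In a fit of all 17930 transcripts that passed the expression filter (edgeR quasi-likelihood, fish as a block), the members' median log2 fold change was -0.67 for EE2 10 nM against DMSO, -0.56 for EE2 1 µM against DMSO, -0.56 for Mix 10 nM against DMSO and -0.54 for Mix 1 µM against DMSO. Against BaP at the same dose it was -0.49 for Mix 10 nM and -0.52 for Mix 1 µM. The 4 comparisons against DMSO share the DMSO slices, and all 6 belong to the contrast that chose the members, so nothing is read from their agreement in direction. All members passed the filter, and 35 of 40 were below 0 in all 6 comparisons. The exceptions were members 1, 2, 13, 14 and 35.

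For EE2 10 nM against DMSO, 9 members had an edgeR adjusted p under 0.05 (threshold on Benjamini-Hochberg values) and were lower, where 1.62% of all transcripts tested did. The same count was 2 for EE2 1 µM against DMSO (0.0335% of all), 0 for Mix 10 nM against DMSO (0% of all), 2 for Mix 1 µM against DMSO (0.0837%), 0 for Mix 10 nM against BaP 10 nM (0%) and 3 for Mix 1 µM against BaP 1 µM (0.112%). Where the count was 0, 22 members had an unadjusted p under 0.05 for Mix 10 nM against DMSO and 15 for Mix 10 nM against BaP 10 nM, in either direction. The shares of all transcripts, also in either direction, were 6.91% and 6.51%. DESeq2 called 1 member in each, and it was lower. Of the 17930 transcripts, DESeq2 called 10 and 4 as lower, and 75 and 71 in either direction (0.418% and 0.396%). These counts describe the choice. They also rested on the 4 slices that were left out: with all 47 libraries they were 1, 0, 0, 1, 0 and 1 in the same order, beside 0.00561%, 0%, 0%, 0.0393%, 0% and 0.0337% of all transcripts.

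Of the members, 13 were called by edgeR in at least 1 of the 6 comparisons, 1 of them in 2 and 1 in 3. Members 1 and 2 were called in none. The share of all transcripts called this often is not given here, and these counts also describe the choice. Member 6 was called in 3, at -0.60 ± 0.17 for EE2 10 nM against DMSO, -0.84 ± 0.19 for Mix 1 µM against DMSO and -1.04 ± 0.19 for Mix 1 µM against BaP 1 µM (log2 fold change ± SE). Member 22 (5061 bases) was called in 2, at -1.06 ± 0.19 for EE2 10 nM and -1.15 ± 0.23 for Mix 1 µM, both against DMSO. Members 34 (1263 bases) and 35 (1221 bases) were called together for Mix 1 µM against BaP 1 µM, at -0.98 ± 0.21 and -1.02 ± 0.22. Their levels correlated at 0.979 within fish and side, so they too may share reads. Members 7 and 12 (432 bases) were called for EE2 1 µM against DMSO, at -1.05 ± 0.24 and -1.19 ± 0.27. These members, and 11, 14, 16, 18 and 25 below, were singled out after their values were seen, apart from those in the first 10 ranks.

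**Figure D3:**
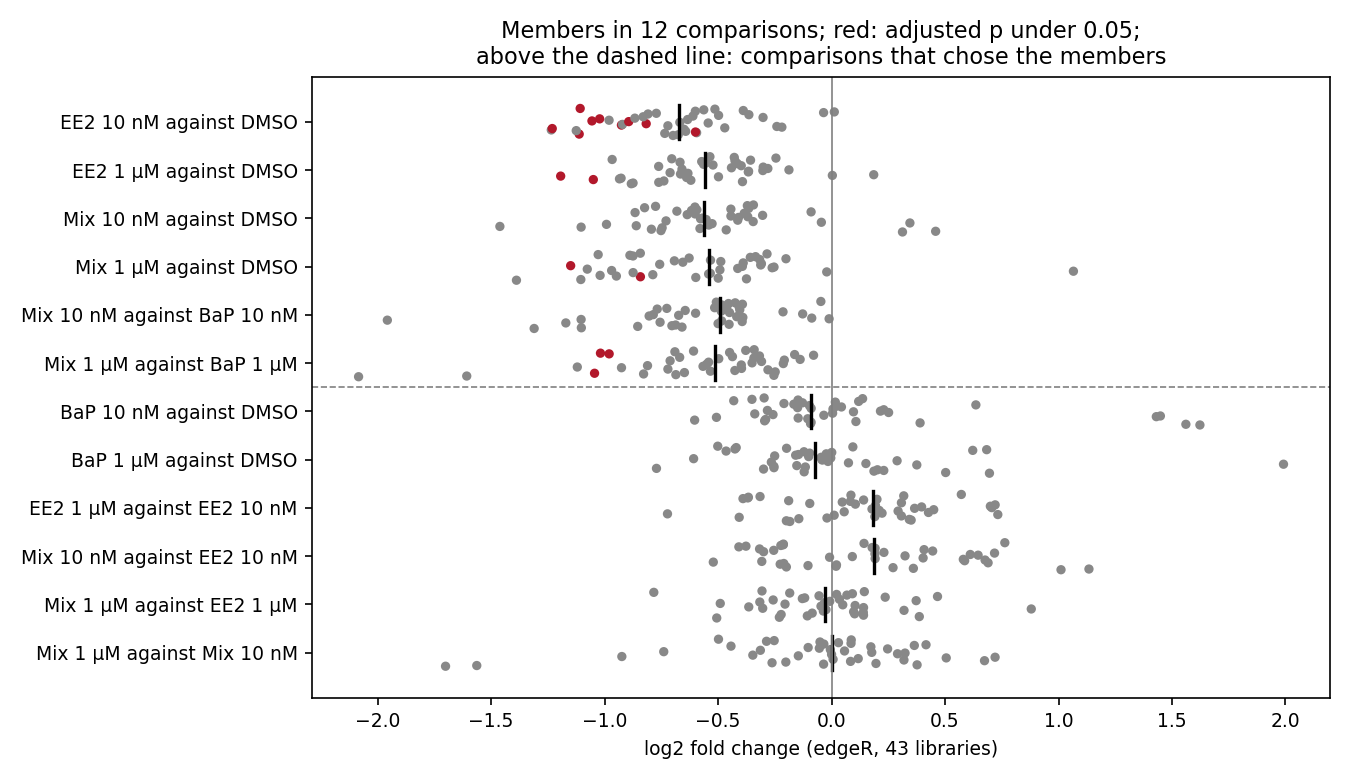
Log2 fold change (x axis, edgeR) of each of the 40 members in 12 comparisons (y axis), with a bar for their median and red points for an adjusted p under 0.05. Above the dashed line, in the comparisons that chose the members, the medians lie between -0.67 and -0.49; below it they lie between -0.09 and 0.18 and no member is red.

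The comparisons of BaP with vehicle did not enter the choice as a contrast, since BaP and DMSO slices were pooled on the same side. With BaP 1 µM against DMSO, 0 of 40 members passed the edgeR test, where 0.128% of all transcripts did. Of the members, 14 were above 0 and 26 below, with a median log2 fold change of -0.07, beside -0.01 over all transcripts. With BaP 10 nM against DMSO, 0 members passed (0.00558% of all), with 18 above 0, 22 below and a median of -0.09, beside -0.02 over all. An unadjusted p under 0.05 was reached by 4 of 40 members in each comparison, beside 10.2% of all transcripts for BaP 1 µM and 3.48% for BaP 10 nM, and DESeq2 called no member in either. With a fish left out the medians ran between -0.12 and 0.00 for BaP 1 µM and between -0.14 and 0.05 for BaP 10 nM, so neither kept its sign.

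Member 14 (372 bases) had the highest log2 fold change of all members with BaP 1 µM, 1.99 ± 0.62 (edgeR adjusted p = 0.288). Its median was 5.42 CPM with BaP 1 µM (range 1.84 to 39.5, 6 slices) and 5.65 CPM with BaP 10 nM (1.06 to 22.8, 6 slices), against 1.11 CPM with DMSO (0.66 to 4.03, 7 slices). Its slices with EE2 alone had medians of 1.42 CPM at 10 nM and 1.67 CPM at 1 µM, and its Mix slices 2.40 and 3.83 CPM at these doses, so that the EE2 and Mix medians were above that of DMSO and below those of BaP. With DMSO as the only slices on the other side, its difference with EE2 was 0.44 instead of -0.60, and with EE2 alone against DMSO it was 0.28. Its place on the list therefore rested on its BaP slices. Its BaP 1 µM call was reached without fish 6 (log2 fold change 2.84, edgeR adjusted p = 0.0358), and over all 14 settings tried that p ran between 0.0358 and 1.00. The transcript at rank 43, just outside the list, rose with BaP 1 µM against DMSO by 2.31 ± 0.27 (edgeR adjusted p = 1.56e-06).

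Members 1 and 2 were higher with BaP 10 nM than with DMSO by 1.62 ± 0.76 and 1.56 ± 0.76, which did not pass the edgeR test (adjusted p = 0.999 for both), and the highest of these slices were those of fish 1 with 114 and 95.4 CPM. Members 34 and 35 were higher with BaP 1 µM than with DMSO by 0.62 ± 0.20 and 0.68 ± 0.20, with edgeR adjusted p = 0.312 and 0.270. In these 2 members the difference of Mix 1 µM from EE2 1 µM was 0.07 ± 0.21 and 0.02 ± 0.22. The part of BaP in their distance between Mix 1 µM and BaP 1 µM was not tested.

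The dose of EE2 was tested between EE2 1 µM and EE2 10 nM. None of the 40 members passed (edgeR, 0.0837% of all transcripts), 5 had an unadjusted p under 0.05, beside 21.3% of all, and the smallest adjusted p was 0.0688. The members were more often higher than lower at 1 µM, 28 against 12, with a median of 0.18, beside -0.01 over all transcripts, none past the threshold. Without fish 4 the split was 20 above and 20 below, with a median of 0.00. Member 21 was higher at 1 µM by 0.71 ± 0.22 (adjusted p = 0.0688) and member 25 (2451 bases) by 0.72 ± 0.25 (adjusted p = 0.0856), while member 12 was at -0.72 ± 0.28 (adjusted p = 0.125). Over all transcripts the count depended on which fish was left out: 15 were called with all fish, 1762 without fish 1, 1371 without fish 2 and 0 or 1 without each of the other 6. Among the members, 1 was called without fish 1 and 2 without fish 2. DESeq2 called member 25 (0.74, adjusted p = 0.0301) among 1515 transcripts called in all, 8.45% of those tested. With all 47 libraries, edgeR gave 1 member and 239 of 17824 transcripts an unadjusted p under 0.05. The smallest edgeR adjusted p among the members was then 0.9997.

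Adding BaP to EE2 gave no call among the members. For Mix 10 nM against EE2 10 nM, 0 of 40 members passed in edgeR (0.0279% of all transcripts), 7 had an unadjusted p under 0.05 (18.5% of all), 25 were above 0 and the median was 0.18, beside -0.02 over all. Members 22, 25 and 16 (2067 bases) had the smallest adjusted p, 0.0914, 0.115 and 0.123, with log2 fold changes of 0.65 ± 0.20, 0.72 ± 0.24 and 0.58 ± 0.20. Over all transcripts 5 were called with all fish, 1601 without fish 1 and 527 without fish 2. Of the members, 1 was called without fish 1 and 3 without fish 2. DESeq2 called member 22 among 946 transcripts called in all, 5.28% of those tested. With all 47 libraries, edgeR gave 4 members and 457 of 17824 transcripts an unadjusted p under 0.05. The smallest edgeR adjusted p among the members was then 0.926. The EE2 10 nM slices are on the lower side of both this comparison and the dose comparison, which therefore share them. For Mix 1 µM against EE2 1 µM, 0 members passed (0.039% of all), 1 had an unadjusted p under 0.05 (3.58%) and the median was -0.03. For Mix 1 µM against Mix 10 nM, 0 members passed (0.039%), 2 had an unadjusted p under 0.05 (3.78%) and the median was 0.00. DESeq2 called no member in these 2 comparisons.

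Whether the change with EE2 depended on BaP was tested as an interaction at each dose. At 10 nM and at 1 µM, 0 members passed in edgeR and in DESeq2, as did 0% of all transcripts in edgeR, with 4 and 1 members at an unadjusted p under 0.05, beside 7.28% and 2.97% of all. At 10 nM the smallest adjusted p, 0.632, was shared by members 16, 22 and 40, whose interactions were 0.84 ± 0.29, 0.93 ± 0.28 and 1.06 ± 0.40, each a less negative difference with EE2 in the presence of BaP. The median interaction was 0.09 at 10 nM and 0.00 at 1 µM. An adjusted p of this size does not show that the changes were alike.

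The change with EE2 did not differ detectably between the sexes for any member: 0 of 40 passed in edgeR and in DESeq2 (0.00558% of all transcripts in edgeR), and 1 had an unadjusted p under 0.05 (3.56% of all). That was member 3, at 0.63 ± 0.25 (females minus males). The median was 0.15 and 27 members were above 0, while without fish 1 the median was -0.07, with 17 above and 23 below. The fit took slices as units, with fish as a block, so its p-values do not measure how the change varied between fish of a sex. With 3 females and 5 males the comparison is coarse, and fish 1, which had the most negative median, is a male.

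For nearly all members, the spread of levels between fish without EE2 was larger than the size of the mean change with EE2. These are unlike measures, a spread and a mean. The SD of the fish means on the log2(CPM + 0.1) scale had a median of 1.25 over members, beside 0.50 over the 13846 transcripts of the window, and in 39 of 40 members it was larger than the mean difference with EE2. The share of window transcripts with this order was not computed. Their median difference with EE2 was 0.005, so nothing particular to the members is read from the count. The largest was 2.67 in member 4. Counts were summed per fish to compare 3 females with 5 males: 0 members passed in edgeR (0% of all 18082 transcripts tested), 3 had an unadjusted p under 0.05 (2.73% of all) and the median was -0.34. With a fish left out that median ran between -1.15 (without fish 6) and 0.00 (without fish 8). Member 8 had the largest support, with a log2 fold change of -3.00 ± 0.71 (females against males, edgeR adjusted p = 1.00, unadjusted p = 0.00203), and DESeq2 called it (-2.99, adjusted p = 0.00486) among 12 transcripts called in all. By fish its DMSO slices had 0.20, 1.12 and 0.73 CPM in the females (fish 3, 6 and 8), against 3.49, 5.36, 2.54 and 14.1 CPM in the males (fish 1, 4, 5 and 7). The sexes did not overlap in these slices, but the share of all transcripts of which this is true was not computed. With so few fish, and a member picked for its sex difference, nothing is read from it. With BaP 10 nM the male fish 5 had 1.05 CPM, below the DMSO slice of the female fish 6.

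**Figure D4:**
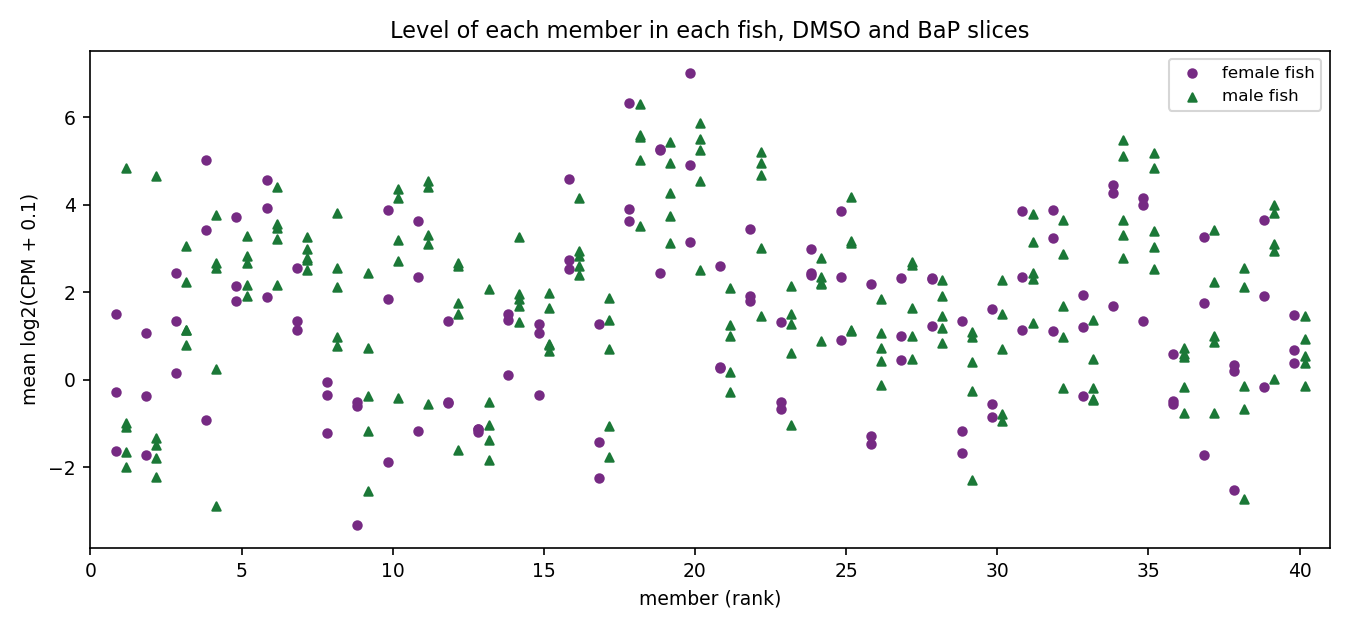
Mean log2(CPM + 0.1) of the DMSO and BaP slices (y axis) for each of the 40 members by rank (x axis), 1 point per fish, females as circles left of males as triangles. The fish span 7.90 log2 units in member 4 and 1.48 in member 36, and females and males are mixed in most members.

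The share of the liver in body weight, which ranged from 4.03% to 12.4% over the 8 fish, was tested as a slope on the summed counts of 37 members that passed the filter of that fit. No member passed in edgeR (0% of all 15689 transcripts), 4 had an unadjusted p under 0.05 (3.94% of all), and the median slope was -0.05 log2 units per percentage point. Member 8 had 0.42 ± 0.09 (adjusted p = 0.961), and DESeq2 called it (0.41, adjusted p = 0.0094) among 16 transcripts called in all. The 3 females had liver shares of 4.47%, 4.03% and 7.40%, against 5.51% to 12.4% in the males, so that sex and liver share were linked in these fish.

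Within fish, the members did not move as 1 block. After removal of the means of each fish and side, the correlation between 2 members across the 43 libraries had a median of 0.12 over 780 pairs, beside 0.11 over all pairs of the window, and 4 pairs were over 0.8. These correlations share library and depth and are given as a description. Apart from the pairs 1 and 2, and 34 and 35, some correlated pairs had members in common. These were members 18 (1968 bases) and 25 at 0.83, 11 (1236 bases) and 18 at 0.81, and 16 and 18 at 0.79. Members 16 and 25 were at 0.78, and 11 and 20 at 0.73. The share of window pairs this high was not computed, and the pairs were picked after their values were seen. Between fish, the correlation of the fish means without EE2 had a median of 0.23 over the 780 pairs, beside 0.13 over the window, and 77 pairs were over 0.8. The share of window pairs over 0.8 was not computed here either. Members 11 and 16, also picked after their values were seen, were ordered differently, since their fish means correlated at -0.97 over 8 fish. In fish 8, for example, member 11 had 0.23 CPM with EE2 10 nM against 0.24 CPM with DMSO, while member 16 had 20.1 CPM against 23.7 CPM.

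The members had a moderate to low level and a wide spread between fish. Both were measured in slices that also chose the members, and the window was not matched to the members on level. Level and spread are thus a description of the choice. The list obtained with the sides swapped shared the wide spread, and its level was low only without EE2. Their median coding length was 1250 bases, beside 1173 over the window and 1163 in the swapped list. Their median level without EE2 was 5.32 CPM, beside 12 CPM over the window, and 20% of them were at 10 CPM or more, beside 55.1% of the window. The swapped list, whose window was set on the slices with EE2, had a median of 15.5 CPM with EE2, beside 12.4 CPM over the members' window. Without EE2, where a list chosen for a rise is low by its choice, its median was 1.46 CPM and 25% were at 10 CPM or more. Its median SD of the fish means was 0.96, beside 1.25 in members and 0.50 over the window. Per kilobase of coding length, the median levels without EE2 were 4.34 CPM in members and 1.35 CPM in the swapped list, beside 10.1 CPM over the window. A mean under 2 CPM was found in 11 members, and 8 had a count of 0 in at least 1 library used, so part of the list is close to the precision that this depth allows.

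The same rule with the sides swapped, which takes transcripts that were higher with EE2, gave 40 transcripts of a different size of change. Their median difference was 1.87, with a range of 1.04 to 5.94, beside the members' -0.55 and a range of -1.31 to -0.47. The smallest change on the swapped list was thus larger in size than that of 38 of the 40 members. In the swapped rule 757 transcripts were higher in 7 or more fish, beside the 967 that were lower. Both lists were chosen by the values given here, and their sizes are not tested.

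In the 4 slices that the choice left out, most members were lower than in the other slices of the same fish on the same side. Most transcripts of the window were lower there too. In the left-out slices of fish 2, 6, 7 and 8, in this order, 35, 31, 32 and 30 members were below 0. Above 0 were 5, 9, 8 and 10 members, and 80.3%, 81.3%, 66.7% and 81.6% of the window transcripts were below 0. The Mix 1 µM slice of fish 8 differed from the other EE2 and Mix slices of its fish by -1.5 in the median over members (log2 scale), where the median over the window was -1.23. The BaP 1 µM slice of fish 7, with no EE2, differed by -1.45 over members from its only other slice without EE2, where the window median was -0.63. The BaP 10 nM slice of fish 6 gave -1.12 (window -0.71), and the DMSO slice of fish 2 gave -1.16 (window -0.77). The same-side slices of the 3 slices without EE2 are among those whose high values chose the members, so nothing is read from these distances. Against the EE2 and Mix slices of their fish, the BaP 1 µM slice of fish 7 was at -0.51 (window -0.57), the BaP 10 nM slice of fish 6 at -0.58 (window -0.73) and the DMSO slice of fish 2 at -0.61 (window -0.80), each less far below than the window. The Mix 1 µM slice of fish 8 was at -1.77 (window -1.19) against the DMSO and BaP slices, and on its own side 9 members were under the lower quartile of the window and 12 over the upper quartile. The slices set against these 4 chose the members by their low or high values, so nothing is read from these distances either. Member 25 had the most negative same-side difference of all members in the BaP 1 µM slice of fish 7 (-6.78), with 0.06 CPM against 18 CPM in the DMSO slice of the same fish. In the Mix 1 µM slice of fish 8 it had 0 counts, against 4.11 to 5.99 CPM in the other EE2 and Mix slices. With all 47 libraries, its mean difference with EE2 was -0.03 instead of -0.52. The composition factors of these 4 libraries (TMM) were 0.57 to 0.76, and their part in the members' levels was not tested.

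**Figure D5:**
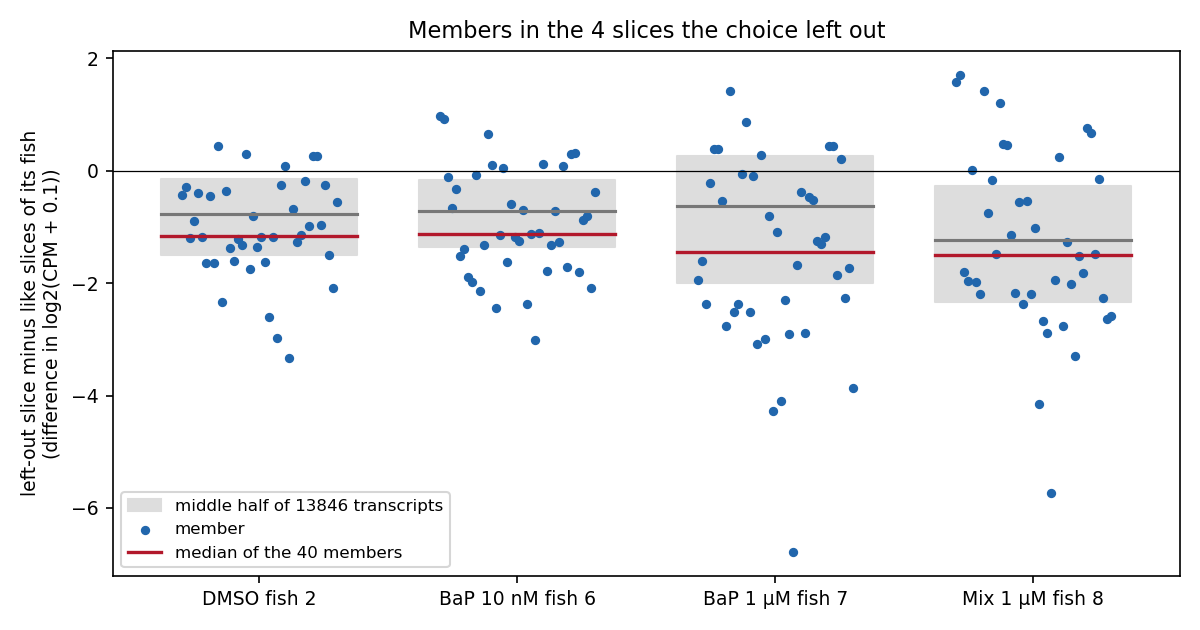
Difference in log2(CPM + 0.1) of each member (dots) between a left-out slice and the slices of the same fish on the same side (y axis), for the 4 left-out slices (x axis), with the members' median in red and the median and middle range of the window transcripts in grey. The members' medians, -1.16, -1.12, -1.45 and -1.5 left to right, each lie below the grey median. Against the other side, not plotted, 3 of the 4 lay above it. The slices on both sides chose the members, so nothing is read from these positions.

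How far the list depends on the choice can be read from how many of the 40 were chosen again. With all 47 libraries 20 were, with DMSO as the only slices without EE2 20, and with EE2 alone against DMSO 18. With TMM or RLE scaling of the libraries 36 and 35 were. Leaving out a fish kept 28 to 33. Under every one of 16 settings, 2 members were chosen.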

How the data were processed

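RNA-seq counts of 47 cod liver slices were read from 1 table per slice. The deposited values are counts of mapped read segments for 22100 transcripts, not normalized, and the submitters' processing notes name SAMtools 1.4.1, HISAT2 2.1.0 and FastQC 0.11.5. For the build and the aligner options, nothing is given in the sources used here. Tables list an identifier, a length, mapped segments and unmapped segments with a mapped mate, and both mates of a pair add to the count. Lengths are multiples of 3 in 99.99% and are called coding lengths. The row of unplaced segments, 41.8% to 57.8% of all segments, stayed out of library sizes and tests, and unmapped mates were a further 9.14% to 11.7%. The kit was stranded per the labels' protocols. Reads carried no molecular identifiers, and limits of 3 counts cover counting error only. Of the identifiers, 0 matched the 33114 genes of the name table for assembly gadMor3.0, so the pathway and cell marker lists could not be applied.

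Members and lists were chosen with earlier results of these data known. The tests used edgeR 4.0.16 in R 4.3.3 (quasi-likelihood F test, TMM factors, expression filter with minimum count 10 and minimum total count 15, Benjamini-Hochberg, threshold 0.05) on all transcripts of the 43 libraries, with treatment and fish as terms. The SE is the log2 fold change divided by the square root of F. Fish is a block because each replicate number has a constant sex, body weight and liver weight in the labels. Deviations from the group means correlated at 0.745 on average (lowest 0.411) between libraries of 1 fish and at -0.116 between fish. Females against males and liver share, both in slices without EE2, were tested on counts summed per fish. The difference between sexes in the change with EE2 was tested on slices, with fish, EE2 and BaP dose as terms. Alternatives were all 47 libraries, no block, RLE factors, no filter, DESeq2 1.42.0, each fish left out, and other pseudocounts, scalings and reference slices for the choice. Described singly were ranks 1 to 10, the members with the highest and lowest level and the smallest spread between fish, members called in a comparison outside the choice, and ranks 38 to 40 with the 3 next outside.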

Additional observations from a re-analysis of the deposited data

Results flagged for a closer look

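In 33 groups of values (the change per fish of 25 members named in the text, its median over members, and the median member level in each treatment), a value was looked for whose gap to its nearest neighbour was too wide for a group of that size. For values that no choice had used, chance gives about 1 in 20. The changes per fish chose the members, so that rate does not hold for them and the flags are a description. Fish 1 was so flagged for member 1 (-5.96), member 2 (-5.85), member 12 (-1.49), member 13 (-2.99) and member 39 (-1.32), and fish 7 for member 36 (0.367, the only fish in which that member was higher with EE2). Without the flagged fish the mean difference was -0.65 for member 1, -0.48 for member 2, -0.49 for member 12, -0.27 for member 13, -0.35 for member 39 and -0.59 for member 36. Fish 1 had 2 slices with EE2 and 3 without, and members 1 and 2 may share reads. Without fish 1, members 1, 2 and 13 would have a mean under 1 CPM in the slices without EE2, outside the window.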

How the results depend on the processing

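The members' median change with EE2 stayed negative under all alternatives, between -0.62 and -0.39, and between -0.60 and -0.52 with a fish left out. The same difference in largely the same slices chose the members, so its sign is a description and nothing is read from it. Of the 40, 22 were chosen again with a pseudocount of 1, 20 with all 47 libraries, 20 when all 8 fish had to fall, 20 with DMSO slices only, 18 with EE2 alone against DMSO, and 28 to 33 without a fish. Member 14 reversed with DMSO slices only (0.44) and with EE2 alone against DMSO (0.28), since its BaP slices then leave the other side.

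With fish as a block, the counts of all transcripts called were those in the text. No replicate block gave 6 for BaP 1 µM and 0 for BaP 10 nM against DMSO, 0 for the EE2 dose, 4 for Mix 1 µM and 0 for Mix 10 nM against EE2, 4 for the Mix dose and 0 for sex by EE2, against 23, 1, 15, 7, 5, 7 and 1 with it. All 47 libraries gave 12, 0 and 0 for BaP 1 µM, BaP 10 nM and the EE2 dose, 0 for Mix 10 nM against EE2 10 nM and 0 for sex by EE2. RLE factors and no filter each gave 0 for the EE2 dose. DESeq2 gave 61 for BaP 1 µM, 1515 for the EE2 dose, 13 and 946 for Mix 1 µM and Mix 10 nM against EE2, 2 for sex by EE2, 12 for females against males and 16 for the liver slope. It called 1 member each for the EE2 dose, Mix 10 nM against EE2 10 nM, sex and the slope.

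In the comparisons that chose the members, all 47 libraries called 1 member for EE2 10 nM, 0 for EE2 1 µM and 1 for Mix 1 µM against DMSO, and 1 for Mix 1 µM against BaP 1 µM. In all, 51 transcripts were called for EE2 10 nM, 1 of them lower, and 54 for Mix 1 µM against BaP 1 µM, 6 of them lower. DESeq2 called 16, 3, 1 and 4 members for EE2 10 nM, EE2 1 µM, Mix 10 nM and Mix 1 µM against DMSO, and 1 and 5 for Mix 10 nM and Mix 1 µM against BaP. Its calls in all were 919 for EE2 10 nM, 129 for EE2 1 µM and 173 for Mix 1 µM against DMSO, and 154 for Mix 1 µM against BaP 1 µM. Of these, 563, 20, 54 and 51 were lower.

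Leaving out each fish gave 11 to 26 calls for BaP 1 µM (0 to 1 members), 0 to 1 for BaP 10 nM, 0 to 1762 for the EE2 dose (0 to 2 members), 0 to 1601 for Mix 10 nM against EE2 10 nM (0 to 3 members), 5 to 9 for Mix 1 µM against EE2 1 µM, 6 to 8 for the Mix dose, 0 to 3 for sex by EE2 and 0 to 1 for females against males. The cause of these shifts was not tested. Levels under about 0.08 CPM cannot be told from 0 at this depth.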
